A study of Mus musculus with 6 samples.

Results

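The translation elongation factor genes described here are 10 of the 17348 genes measured in the E18.5 cortex: Eef1a1, Eef1a2, Eef1b2, Eef1d, Eef1g, Eef1e1, Eef2, Eef2k, Eif5a and Eif5a2. They were chosen by gene symbol as the cytosolic elongation factors, their exchange complex and the kinase that acts on eEF2, and all 10 were found in the table and passed the filter on low counts. RNA-seq was done on 3 control (Ctrl) and 3 conditional knockout (cKO) libraries made from mRNA, purified from total RNA of mouse cortex at this stage, E18.5. The cKO embryos carried floxed Ybx1 alleles (Ybx1 fl/fl) with Nestin-Cre, a transgene active in neural progenitors and their progeny, so that other cells of the cortex keep the gene, and the floxed allele was made in C57BL/6J eggs. The Ctrl embryos were littermates that the labels call WT and that the study elsewhere gives as Ybx1 fl/fl without Cre, so that the Nestin-Cre transgene itself and the deletion cannot be told apart. The question was which transcripts differ in level when Ybx1, which encodes an RNA- and DNA-binding cold shock protein, is removed from the developing nervous system.

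During elongation, eEF1A bound to GTP brings each aminoacyl-tRNA to the ribosome, and the eEF1B complex then exchanges the spent GDP for GTP so that eEF1A can be used again. eEF2 moves the ribosome along by one codon after each peptide bond, and phosphorylation of eEF2 by the kinase eEF2K stops it from doing so. eIF5A, which carries the modified lysine hypusine, helps the ribosome past sequences at which peptide bonds form slowly, such as runs of proline. Many mRNAs of the translation machinery, those of eEF1A1 and eEF2 among them, begin with a C and a run of pyrimidines, the terminal oligopyrimidine motif, through which their translation responds to mTOR signalling.

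The windows around the annotated start are shown for 3 genes whose cKO libraries all lay below the Ctrl libraries, Eef1a1, Eef2 and Eef1b2, because such mRNAs are known for the sequence at their start. Each window runs from 50 bases before to 30 bases after the RefSeq start on GRCm38.p6, 5′ to 3′ on the strand of the gene, and its longest pyrimidine run is in capitals. The windows are chr9:78481695-78481774 (minus strand), chr10:81176581-81176660 (plus strand) and chr1:63176781-63176860 (plus strand).
Eef1a1: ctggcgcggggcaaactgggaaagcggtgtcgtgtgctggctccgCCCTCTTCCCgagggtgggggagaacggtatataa
Eef2: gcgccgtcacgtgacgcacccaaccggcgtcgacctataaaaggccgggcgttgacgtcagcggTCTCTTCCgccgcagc
Eef1b2: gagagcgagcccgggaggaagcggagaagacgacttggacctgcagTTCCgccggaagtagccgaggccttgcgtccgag
The longest run was 10 bases in Eef1a1, 8 in Eef2 and 4 in Eef1b2. For comparison, the same windows are given for 3 genes whose Ctrl and cKO libraries overlapped, namely Eef1a2 (chr2:181156986-181157065, minus strand), Eef1e1 (chr13:38658999-38659078, minus strand) and Eif5a2 (chr3:28781227-28781306, plus strand).
Eef1a2: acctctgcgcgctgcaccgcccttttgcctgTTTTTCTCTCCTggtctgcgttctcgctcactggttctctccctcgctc
Eef1e1: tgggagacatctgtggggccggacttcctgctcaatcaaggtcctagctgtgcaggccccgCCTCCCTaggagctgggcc
Eif5a2: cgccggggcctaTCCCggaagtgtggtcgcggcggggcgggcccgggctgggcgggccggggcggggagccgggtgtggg
Here the longest runs were 12 bases in Eef1a2, 7 in Eef1e1 and 4 in Eif5a2. Counted from the annotated start, these runs began at -19, 12 and -38. The windows include bases before the annotated start, and whether run length goes with the level change described below was not tested. A pyrimidine run of at least 8 bases stood in 30.4% of the 32851 RefSeq windows of this length, searched on the strand of the gene. The letters TATAA, searched on both strands, stood in 8.14% of the windows and were found in those of Eef1a1 and Eef2 and in none of the other 4. Counted from the annotated start, they began at position 26 in Eef1a1, so after the start, and at -15 in Eef2. The longest pyrimidine runs began at -5 in Eef1a1, 15 in Eef2 and -4 in Eef1b2. Whether transcripts of this tissue begin at the annotated starts, and so with these runs, was not tested. These matches describe the letters in these windows only. Windows for 8 of the 10 genes were in the RefSeq table, and Eef1d and Eef1g were not among them. Eef2k and Eif5a, whose groups also overlapped, have several windows each, which are not printed. Their longest runs were 5, 4 and 10 bases in the Eef2k windows and 2 to 6 bases in those of Eif5a.

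The libraries held between 15091951 and 16885451 estimated counts, and 3 counts, the detection floor, corresponded to between 0.178 and 0.199 CPM (counts scaled to the library total), which covers counting error only. Every elongation factor gene stood far above this floor in each library. Ybx1 itself measured 1089 ± 182 CPM (SD, n = 3) in Ctrl and 24.6 ± 0.519 in cKO. The groups also parted on 4 Y-linked genes, Ddx3y, Eif2s3y, Kdm5d and Uty, whose mean levels were 28.6 to 100.4 CPM in Ctrl and at most 1.16 CPM in cKO, so that the sex of the embryos and the genotype cannot be told apart in any value below. Of 9 cortex identity genes, 0 passed an unadjusted p of 0.05. Among other cell type markers, edgeR's unadjusted p was under 0.05 for 2 of 14 neuronal genes in the higher direction (Slc17a7 and Syt1) and 1 in the lower (Nefl), for 1 of 10 radial glia genes (Pax6, higher) and for 1 of 6 endothelial genes (Cdh5, higher), and their adjusted p was 0.0722 to 0.608. Over all genes tested, 3.14% passed the unadjusted threshold in the higher and 3.49% in the lower direction. No gene of the intermediate progenitor, erythroid, microglia or oligodendrocyte precursor lists did so, and 1 of 5 choroid plexus genes was high enough to be tested. The part of cell composition in the values below was not tested, and in such bulk libraries fewer cells of a type and less RNA per cell cannot be told apart.

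Across the 10 genes, 4 were lower in cKO at an unadjusted p under 0.05 (Eef1g, Eef2, Eef1a1 and Eef1b2), against 3.49% of the 13570 genes tested, and 0 were higher, against 3.14%. In the same 4 genes every cKO library lay below every Ctrl library, as it did in 6.93% of all genes tested. After Benjamini-Hochberg adjustment of edgeR's quasi-likelihood test over all genes, 0 of the 10 passed 0.05 in the lower direction, against 0.0516% of all genes. DESeq2 put all 4 under an adjusted p of 0.05, a threshold that 75 of all 13570 genes passed in the lower direction in that fit. The edgeR count was also 4 without Ctrl replicate 2 (96 of all 13687 genes) and 3 without Ctrl replicate 3 (14 of all 13719 genes). In all 15 other fits tried, the same 4 genes passed the unadjusted threshold in the lower direction. The other 6 genes had 95% intervals of the fold change that included 0. The median log2 fold change was -0.22 over the 10 genes, 0.00 over all genes tested and -0.59 over 80 ribosomal protein genes, of which 69 passed the unadjusted threshold in the lower direction. The median over the 10 genes was -0.08 without Ctrl replicate 2 and -0.33 without Ctrl replicate 3. The series description calls the replicates biological and speaks of 3 sequencing batches without tying libraries to them, so that a batch cannot be set apart in these values.

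**Figure D1:**
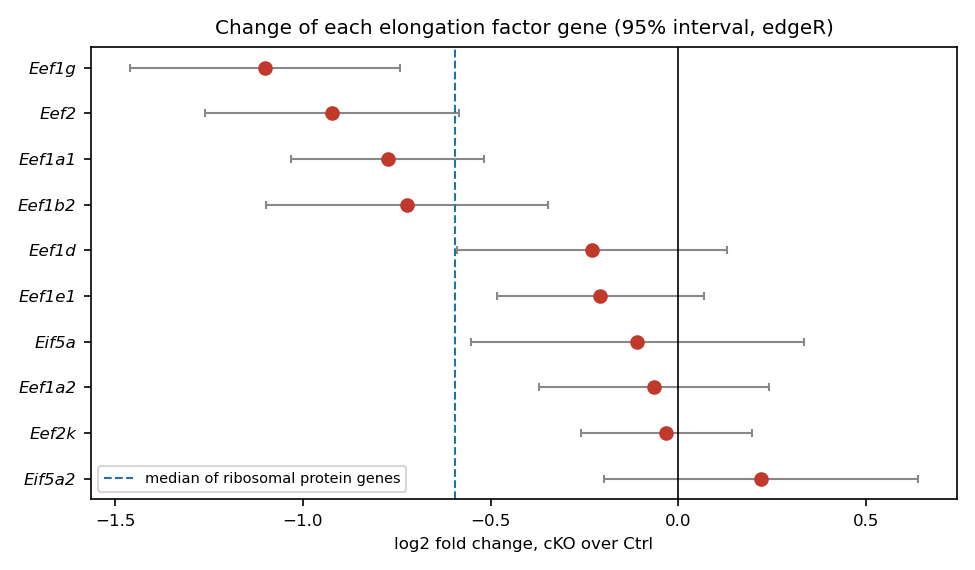
Log2 fold change of cKO over Ctrl for the 10 elongation factor genes, in order, with 95% intervals from the edgeR fit (horizontal axis: log2 fold change, 0 is no difference). The intervals of Eef1g, Eef2, Eef1a1 and Eef1b2 lie below 0 and those of the other 6 include it, and the dashed line marks the median of the ribosomal protein genes at -0.59.

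The eEF1A genes come first by level. Eef1a1 (chr9:78478449-78489151, minus strand, GRCm38) encodes the eEF1A isoform used by most cells, and Eef1a2 (chr2:181147653-181157014, minus strand) the isoform that takes over in mature neurons and muscle. Eef1a1 measured 7430, 8086 and 7023 CPM in the Ctrl libraries and 4433, 4381 and 4368 CPM in the cKO libraries. The 3 cKO values lay within 1.015-fold of each other, and the lowest Ctrl value was 1.58 times the highest cKO value. The mean was 7513 ± 536 CPM in Ctrl and 4394 ± 34.1 in cKO, which is 58.5% of Ctrl. The log2 fold change was -0.77 (SE 0.113, 95% interval -1.03 to -0.52), with an edgeR adjusted p of 0.0816 and an exact two-sided permutation p of 0.1, the smallest that 3 libraries against 3 allow.

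Eef1a2 measured 96.7, 121 and 89.1 CPM in Ctrl and 106, 91.9 and 95.2 CPM in cKO. The groups overlapped, and the highest value was that of Ctrl replicate 2. The log2 fold change was -0.06 (SE 0.136, 95% interval -0.37 to 0.24, edgeR adjusted p = 0.937), an interval that leaves room for a difference of either sign. On the TPM scale, which is per transcript length and so allows genes to be compared, Eef1a1 stood at a level 398, 342 and 408 times that of Eef1a2 in the Ctrl libraries. In the cKO libraries the same ratio was 216, 247 and 236, and no cKO library reached the lowest Ctrl ratio. The log2 difference in this ratio was -0.71, with an exact permutation p of 0.1 and 0.12 after adjustment over the 6 ratios compared. Eef1a1 stood above Eef1a2 by at least 216-fold in every library of both groups.

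The reads of these 2 isoform genes differ along their coding sequence, and its first 90 bases in the GENCODE transcripts show how they differ, with the differing bases in capitals and each base counted from the A of the start codon.
Eef1a1: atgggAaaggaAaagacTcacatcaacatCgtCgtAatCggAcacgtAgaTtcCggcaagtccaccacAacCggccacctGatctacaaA
Eef1a2: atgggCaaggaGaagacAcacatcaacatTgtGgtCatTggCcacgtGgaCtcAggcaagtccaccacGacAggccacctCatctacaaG
All 15 differences in this stretch fall on the third base of a codon. Over 1389 aligned coding bases the genes were 80.1% identical, and the longest identical stretch was 23 bases. The estimated counts of Eef1a1 and of Eef1a2 were whole numbers in all libraries but 1. Eef1a1 also has processed pseudogenes in the mouse genome, and how reads shared with them were divided is not given in the sources used here, so part of its count is uncertain in both groups.

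The eEF1B complex is built from 2 subunits that exchange the nucleotide, eEF1Bα (Eef1b2) and eEF1Bδ (Eef1d), and the scaffold eEF1Bγ (Eef1g). The scaffold gene had the lowest fold change of the 10 genes. Eef1g (chr19:8967041-8978479, plus strand) measured 518, 709 and 472 CPM in Ctrl and 271, 271 and 251 CPM in cKO. The lowest Ctrl value was 1.75 times the highest cKO value. The mean was 566 ± 126 CPM in Ctrl and 264 ± 11.4 in cKO, or 46.6% of Ctrl, a log2 fold change of -1.10 (SE 0.159, 95% interval -1.46 to -0.74, edgeR adjusted p = 0.077, exact permutation p = 0.1).

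Eef1b2 (chr1:63176825-63180486, plus strand) measured 246, 349 and 224 CPM in Ctrl and 173, 161 and 162 CPM in cKO. The cKO values were close together and all below the Ctrl values, among which Ctrl replicate 2 was 1.56 times Ctrl replicate 3. The mean in cKO was 60.6% of that in Ctrl, and the log2 fold change was -0.72 (SE 0.166, 95% interval -1.10 to -0.35, edgeR adjusted p = 0.348, exact permutation p = 0.1). Without Ctrl replicate 2 it was -0.51, with an edgeR adjusted p of 0.0176. Eef1b2 overlaps Ndufs1 on the opposite strand over 9 bases and holds small nucleolar RNA genes on its own strand.

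Eef1d (chr15:75894205-75909556, minus strand) measured 83.8, 109 and 69.5 CPM in Ctrl and 71.6, 77.2 and 75.5 CPM in cKO. All 3 cKO values lay inside the range of the Ctrl values. The log2 fold change was -0.23 (SE 0.159, 95% interval -0.59 to 0.13, edgeR adjusted p = 0.85). It was -0.04 without Ctrl replicate 2 and -0.37 without Ctrl replicate 3, where it passed the unadjusted threshold. Eef1d shares 277 bases of gene span with Naprt on the same strand, and reads from exon bases there could fall to either gene.

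Eef1e1 (chr13:38644207-38659058, minus strand) encodes AIMP3, a scaffold protein of the multi-tRNA synthetase complex that resembles the eEF1B subunits. It measured 37.5, 43.8 and 34.6 CPM in Ctrl and 32.7, 32.4 and 35.3 CPM in cKO. Of the cKO libraries, 2 lay below all Ctrl libraries and replicate 3 lay above Ctrl replicate 3. The log2 fold change was -0.21 (SE 0.122, 95% interval -0.48 to 0.07, edgeR adjusted p = 0.816).

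Within a library, the balance between the exchange complex subunits can be read from the ratio of their TPM values, which does not depend on the scaling between libraries. The level of Eef1g was 5.71, 5.93 and 6.35 times that of Eef1d in Ctrl and 3.50, 3.37 and 2.97 times in cKO. The level of Eef1g was 2.69 ± 0.0647 times that of Eef1b2 in Ctrl and 2.07 ± 0.0971 times in cKO (mean ± SD, n = 3). The level of Eef1b2 was 2.23 ± 0.121 times that of Eef1d in Ctrl and 1.59 ± 0.127 times in cKO. In all 3 ratios the libraries of the groups did not overlap. These ratios come from 3 genes, so any 1 of them follows from the other 2. Each also restates the level differences of its 2 genes. The share of other gene pairs whose ratios do not overlap was not measured. The log2 differences were -0.87, -0.38 and -0.49, each with an exact permutation p of 0.1, the smallest possible, and 0.12 after adjustment over the 6 ratios. Ctrl replicate 2 was the highest Ctrl library, and Ctrl replicate 3 the lowest, in the level of all 3 subunits. In Ctrl the standard deviation was 22.2% of the mean for the level of Eef1g in CPM, 24.6% for Eef1b2 and 23.1% for Eef1d.

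**Figure D2:**
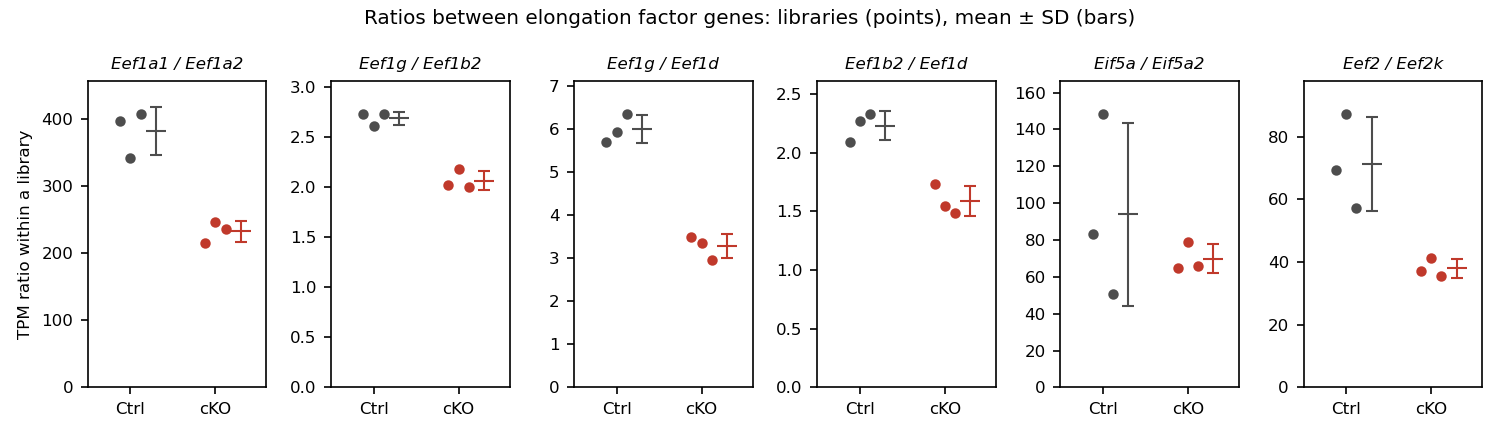
Ratio of 2 elongation factor genes in each library, from TPM values (vertical axes, linear and starting at 0), for 3 Ctrl and 3 cKO libraries as points with mean ± SD as bars. The groups do not overlap in 5 of the 6 ratios, with the mean going from 71.3 to 38.1 for Eef2 to Eef2k, and they overlap for Eif5a to Eif5a2. The ratios among Eef1g, Eef1b2 and Eef1d are not independent, and the share of other gene pairs without overlap was not measured.

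Eef2, the gene of the translocase (chr10:81176631-81182498, plus strand) measured 2745, 3372 and 2396 CPM in Ctrl and 1387, 1641 and 1465 CPM in cKO. No cKO value reached the lowest Ctrl value, which was 1.46 times the highest cKO value. The mean was 2838 ± 495 CPM in Ctrl and 1498 ± 130 in cKO, or 52.8% of Ctrl, with a log2 fold change of -0.92 (SE 0.149, 95% interval -1.26 to -0.58, edgeR adjusted p = 0.108, exact permutation p = 0.1). The small nucleolar RNA gene Snord37 lies within it on the same strand.

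Eef2k (chr7:120842831-120907450, plus strand), a calcium- and calmodulin-dependent kinase, measured 85.4, 82.7 and 90.5 CPM in Ctrl and 80.2, 84.4 and 88.4 CPM in cKO. The groups overlapped over most of their ranges, and the log2 fold change was -0.03 (SE 0.1, 95% interval -0.26 to 0.20, edgeR adjusted p = 0.963). This is the narrowest interval of the 10 genes. The antisense gene Gm15774 overlaps Eef2k over 9790 bases of gene span, introns included. Reads from any exon bases that the pair shares cannot be assigned without strand, and that share was not measured. The level of Eef2 per length was 69.5, 87.2 and 57.2 times that of Eef2k in Ctrl and 37.1, 41.5 and 35.6 times in cKO. This ratio did not overlap between the groups and its log2 difference was -0.89, with an exact permutation p of 0.1 and 0.12 after adjustment over the 6 ratios.

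Of the eIF5A genes, Eif5a (chr11:69916714-69921958, minus strand) is the widely used one and Eif5a2 (chr3:28781276-28798846, plus strand) the one with restricted expression. Eif5a measured 266, 376 and 209 CPM in Ctrl and 243, 282 and 264 CPM in cKO. Every cKO value lay inside the Ctrl range, which spanned 1.80-fold and was the widest of the 10 genes. The log2 fold change was -0.11 (SE 0.196, 95% interval -0.55 to 0.33, edgeR adjusted p = 0.928), and it was 0.15 without Ctrl replicate 2. Its estimated counts were not whole in 6 of 6 libraries, so some of its reads were divided with other loci.

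Eif5a2 was the lowest of the 10 genes and the one with a positive log2 fold change. It measured 14.5, 11.3 and 18.7 CPM in Ctrl and 17.3, 16.3 and 18.1 CPM in cKO. Here Ctrl replicate 2 was the lowest library and Ctrl replicate 3 the highest, the reverse of their order in Eif5a. The log2 fold change was 0.22 (SE 0.185, 95% interval -0.20 to 0.64, edgeR adjusted p = 0.862), and it was 0.06 without Ctrl replicate 2. Of the 15 other fits, it passed the unadjusted threshold only without Ctrl replicate 3, with a value of 0.42. The level of Eif5a was 83.3, 148 and 50.5 times that of Eif5a2 in Ctrl and 64.7, 78.7 and 66.1 times in cKO. All cKO ratios lay inside the Ctrl range (log2 difference -0.30, exact permutation p = 0.7). The coding sequences of the pair were 72.7% identical over 462 aligned bases with no identical stretch longer than 14 bases.

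**Figure D3:**
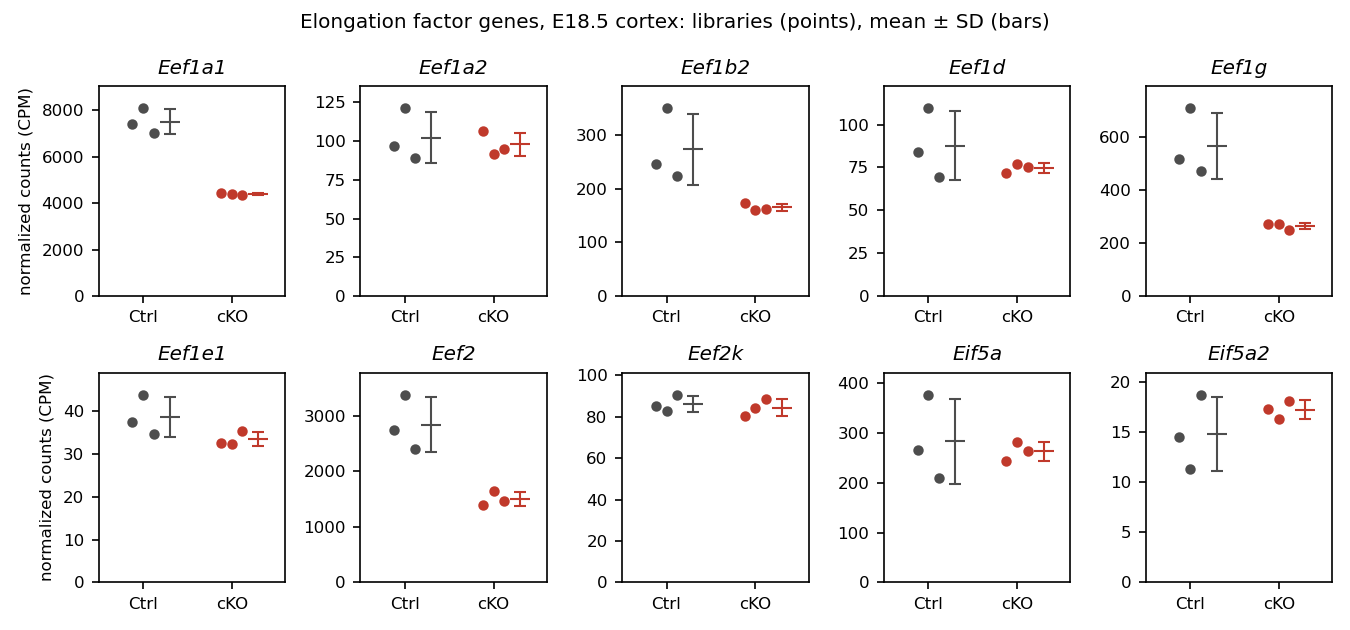
Normalized counts (CPM, vertical axes, linear and starting at 0) of the 10 elongation factor genes in 3 Ctrl and 3 cKO libraries, each a point, with mean ± SD as bars. For Eef1a1, Eef1b2, Eef1g and Eef2 all cKO points lie below all Ctrl points, and the second Ctrl library is the highest of its group in 8 of the 10 panels.

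The order of the levels was set by TPM. In Ctrl it ran from Eef1a1 (10722 ± 292 TPM) through Eef2 (2142 ± 184), Eef1g (943 ± 115), Eif5a (565 ± 115), Eef1b2 (352 ± 51.8), Eef1d (158 ± 23.2), Eef1e1 (111 ± 2.85), Eef2k (30.6 ± 3.79) and Eef1a2 (28.2 ± 2.06) to Eif5a2 (6.76 ± 2.2). The ranges of Eef2k and Eef1a2 overlapped, and all other neighbours in this order were apart in every library. Eef1a1 ranked 2 among the 17348 genes by mean TPM in Ctrl, Eef2 ranked 48 and Eef1g 131, whereas Eif5a2 ranked 10318. In cKO the order was the same but for Eif5a, whose 552 to 633 TPM lay above the 468 to 509 TPM of Eef1g in every cKO library. The TPM of the 10 genes added up to 1.47% to 1.53% of all TPM in Ctrl and to 0.979% to 0.999% in cKO, with Eef1a1 contributing 68.3% to 73.5% of this sum in every library. On the log2(TPM + 1) scale the median of all tested genes was itself 0.14 higher in cKO than in Ctrl, so TPM levels are read relative to that shift.

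In CPM, the Ctrl libraries were spread more widely than the cKO libraries for 9 of the 10 genes. The exception was Eef2k, whose highest value was 1.095 times the lowest in Ctrl and 1.103 times in cKO. In TPM the standard deviation as a share of the mean was larger in cKO for Eef1a2 (8.14% against 7.32%) and Eef1e1 (4.32% against 2.57%). The highest Ctrl value was 1.10 to 1.80 times the lowest over the 10 genes, and the highest cKO value was 1.015 to 1.18 times the lowest. Ctrl replicate 2 lay above its group mean for 8 of the 10 genes, by a median of 0.26 on the log2 scale over all 10, Ctrl replicate 3 did so for 2 and Ctrl replicate 1 for 0. Eef2k and Eif5a2 were the genes for which Ctrl replicate 2 lay below it. In the cKO libraries each replicate lay above its group mean for 5 of the 10 genes. After a correction of each library for transcript length and GC content, the 4 lower genes had log2 fold changes with a median of -0.81 and edgeR adjusted p-values of 0.000451 to 0.0307, and the median of the other 6 was -0.04. In that fit 121 of all 13570 genes tested were lower at an adjusted p under 0.05, against 7 in the reported fit. The part of transcript length and GC content in the level differences was not tested beyond this correction.

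**Figure D4:**
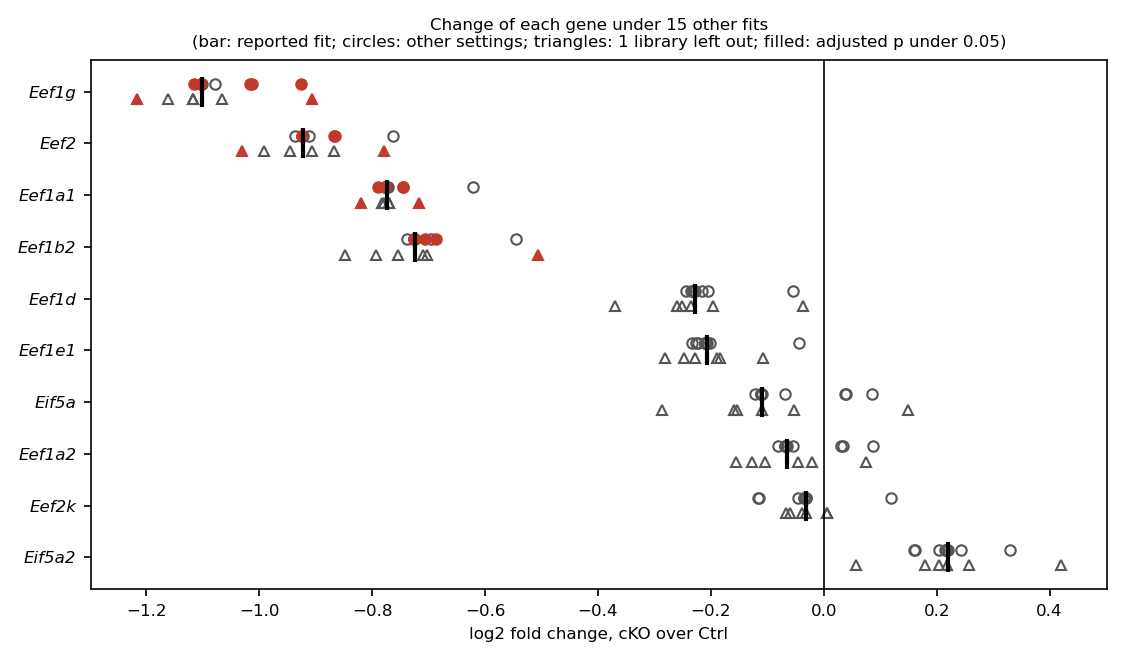
Log2 fold change of cKO over Ctrl for each of the 10 genes under 15 other fits (horizontal axis: log2 fold change), with circles for other settings, triangles for 1 library left out, a bar for the reported fit and filled symbols for an adjusted p under 0.05. All symbols of Eef1g, Eef2, Eef1a1, Eef1b2, Eef1d and Eef1e1 lie below 0, all of Eif5a2 above it, and those of Eif5a, Eef1a2 and Eef2k fall on both sides.

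Genes whose levels followed those of 5 members most closely over the 6 libraries were sought among 9870 genes with a mean of at least 10 CPM. For Eef1a1 they were Ybx1 (Pearson r = 0.994), the ribosomal protein gene Rplp0 (0.993) and Polm (0.991). For Eef1g they were Rpsa (0.998), which encodes a protein of the small ribosomal subunit, Rack1 (0.995) and Atg4b (0.995). For Eef2 they were Tubb2b (0.997), Actr1a (0.994) and Hsdl1 (0.993). For the 2 members whose groups overlapped, the genes were Fkbp2 (0.995) and Slc25a5 (0.991) for Eef1a2 and Ints7 (0.980), Zfp667 (0.973) and Cep120 (0.967) for Eef2k. Ybx1 is the deleted gene, so its levels part the groups by design, and a high r with a gene whose groups also lie apart follows from this. The points share the 2 groups and the 6 libraries, and with so many genes compared over so few libraries such values are a description of these libraries.

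The genes that modify or work beside the elongation factors were taken from 7 lists. Of the 49 genes listed, 48 were tested, and 3 were lower and 0 higher at an unadjusted p under 0.05 in edgeR, against 3.49% and 3.14% of all genes tested. None passed after adjustment, and the median log2 fold change was -0.02, against 0.00 over all genes tested. The 3 were Tpt1, which encodes a small protein that binds eEF1A and its exchange factor, at 1385 ± 295 CPM in Ctrl and 874 ± 31.5 in cKO (log2 fold change -0.66, edgeR adjusted p = 0.357), and 2 factors of ribosome rescue, Pelo at -0.54 (0.672) and Gtpbp1 at -0.29 (0.732). No enzyme that makes hypusine on eIF5A passed, the smallest p being that of Dhps (log2 fold change -0.21, edgeR adjusted p = 0.857). None of the 7 genes of diphthamide synthesis on eEF2 passed (Dph6 had the smallest p, log2 fold change 0.29), nor did any of the 5 methyltransferase genes tested (Eef1akmt1, -0.08). None of the 15 regulators of eEF2K passed (Prkaa2, which encodes a catalytic subunit of AMPK, 0.26), nor did any of the 6 specialised and mitochondrial elongation factors (Gfm1, 0.20).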

How the data were processed

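From total RNA of 3 Ctrl and 3 cKO cortices, mRNA was purified and sequenced as 6 libraries, grouped by genotype and numbered by replicate from the labels. The authors deposited an estimated count, not normalized between libraries, a TPM value and an FPKM value for each gene and library, and 18 of 24 value columns were used. The other 6 hold the authors' group means and were not used. The submitters' processing notes name Bowtie2 2.4.5, HISAT2 2.2.1 and RSEM 1.3.1 and the mouse build GRCm38, without their roles, and counting by strand is not given in the sources used here. Estimated counts, 89.4% of them whole, were rounded, filtered with filterByExpr, scaled by TMM and tested for a genotype difference (R 4.3.3, edgeR 4.0.16, quasi-likelihood fit, p-values of 13570 genes adjusted by Benjamini-Hochberg, threshold 0.05). CPM values are edgeR's on the TMM-scaled total. The TPM values of the authors served for levels and ratios, and the deposited FPKM values entered the ratios as an alternative, as did a pseudocount of 1. The common biological coefficient of variation was 0.147, and no pair of libraries within a group was a duplicate. Ratios were compared by exact two-sided permutation tests over 6 libraries in scipy 1.17.1.

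The genes named are the 10 members, Ybx1 and the Y-linked genes as checks, genes of each pathway list under an unadjusted p of 0.05 or else the one with the smallest p, and for 5 members the 3 genes with the highest correlation of log2 CPM, of which 1 is not reported here. Members and lists were chosen with earlier results of these data known. Alternatives were DESeq2 1.42.0, a block for the replicate number, scaling by RLE, no filter, a filter on CPM above 1 in 2 libraries, TMM factors without ribosomal protein and elongation factor genes, a correction for length and GC content (mgcv 1.9.3, 96.7% of genes with values in GENCODE), limma 3.58.1 on log2(TPM + 1), and each library left out. The reported edgeR fit was tested on simulated data, and the other fits were not. It recovered 30.3% of simulated 1.5-fold changes and 80.6% of 2-fold changes at an adjusted p under 0.05. In the same simulation of 13494 genes 12 calls were false, and a simulation with no change gave 0 calls. Start windows came from RefSeq (GRCm38.p6), coordinates and coding sequences from GENCODE on GRCm38. Figures were drawn with matplotlib 3.10.9.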

Additional observations from a re-analysis of the deposited data

How the results depend on the processing

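Under all 15 alternatives the same 4 genes (Eef1a1, Eef1g, Eef2 and Eef1b2) stayed lower in cKO at an unadjusted p under 0.05. Their number at an adjusted p under 0.05 was 0 in the reported fit, 4 with DESeq2, 4 with the length and GC correction, 2 without the filter on low counts and 1 with limma on log2(TPM + 1), and 0 to 4 with 1 library left out. With the replicate number as a block it was 0 (log2 fold changes -0.77 for Eef1a1, -1.08 for Eef1g, -0.91 for Eef2 and -0.70 for Eef1b2), and 4 with block and correction together. Of all genes tested, 7 of 13570 were lower at this threshold in the reported fit, 75 with DESeq2 and 121 with the correction. Without the filter 11 of 17323 were, and with limma 8 of 13570. With the block 7 of 13570 were, 118 with block and correction together, and 5 to 96 with 1 library left out. Same-numbered libraries deviated together with correlations of 0.0519 to 0.217 (mean 0.117), and differently numbered ones with -0.135 to 0.0599. The reported fit did not take the numbers as pairs, and whether same-numbered libraries belong together was not tested. Pairing leaves the mean log2 ratios as they are by arithmetic, and the exact permutation p of the 5 ratios at 0.1 was then 0.25, the smallest that 3 pairs allow, and that of Eif5a to Eif5a2 0.75. With the correction Eef1a2 was at 0.0333 and Eif5a at 0.0367 (0.0305 and 0.0392 with the block as well), and with limma Eef1a2 was at 0.0877, Eef2k at 0.12 and Eif5a at 0.0848, each against a median of all genes of 0.14 in that fit. With 1 library left out, Eef1a2 ranged from -0.15 to 0.074, Eef2k from -0.0676 to 0.0054, Eif5a from -0.29 to 0.15 and the log2 ratio of Eif5a to Eif5a2 from -0.68 to 0.10. The number of genes higher at an unadjusted p ranged from 0 to 1 (Eif5a2, without Ctrl replicate 3), and the number with every cKO library below every Ctrl library from 4 to 6. The 6 came without Ctrl replicate 3, where 2269 of all 13719 genes tested did the same, against 941 of 13570 in the reported fit. In that fit without Ctrl replicate 3, 821 of all genes tested were higher at an unadjusted p, against 426 in the reported fit. The median over the 10 genes ranged from -0.33 to -0.08 with 1 library left out and was -0.05 with limma. The cause of these changes was not tested. With 3 libraries a group, an exact test cannot reach 0.05, and the shallowest of the 10 genes, Eif5a2, rested on 193 to 284 estimated counts a library.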
